A study of Mus musculus with 9 samples.

Results

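The 10 genes Bmp4, Bmpr1a, Bmpr2, Acvr1, Smad1, Smad5, Smad6, Id1, Id2 and Id3 stand for the bone morphogenetic protein (BMP) pathway and its best known target genes. Their open chromatin was described through 63 of the 75936 deposited peaks (mm10). A peak was taken when its centre lay inside one of these genes, or, outside all protein-coding genes, when the nearest gene end within 50 kb belonged to one of them, so an assigned gene is a neighbour and not a tested target. Of the 63 peaks, 32 lay inside a gene and 31 outside. By gene, Bmp4 had 1 peak, Bmpr1a 6, Bmpr2 5, Acvr1 13, Smad1 4, Smad5 4, Smad6 14, Id1 3, Id2 7 and Id3 6. The rule uses positions and no measured value, but the genes were chosen with earlier results of these data known.

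The libraries were made by ATAC-seq, in which a transposase cuts and tags open DNA, from the mouse breast carcinoma line D2A1-d, used in a study of metastatic dormancy and the Mediator subunit MED4. All 9 libraries are labelled as otherwise untreated D2A1-d cells. A non-targeting control hairpin (NTC, n = 3, genotype labelled wild type) was compared with shMed1 #2 (n = 3) and shMed1 #4 (n = 3), both labelled as knockdown of Med1, which encodes another Mediator subunit. The comparison asks how open chromatin differs when Med1 is targeted by a short hairpin RNA. Per the labels, libraries within a group are biological replicates, with no word on separate cultures, so the p-values measure the spread between these libraries, which may be technical.

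BMP ligands such as BMP4 bring type I receptor kinases (BMPR1A, ACVR1) and the type II receptor kinase BMPR2 together, and the type I receptors phosphorylate SMAD1 and SMAD5. Together with SMAD4 these enter the nucleus and bind GC-rich and CAGAC elements near target genes, among which are the Id genes and Smad6, whose product inhibits the pathway in turn. ID proteins bind E proteins, a family of helix-loop-helix transcription factors, and keep them from DNA, and in breast cancer both Id genes and BMP signals from the host tissue have been linked to the outgrowth or dormancy of disseminated cells.

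Here 5 promoters are shown, and the gene-end peak covers most or all of each. Id2, Id3 and Smad6 had high counts in NTC, and Smad1 and Bmpr1a were the genes whose gene-end peak was lower with the mean of both hairpins. Level and change are different measures, and Smad1 had a high count in NTC too (2053, against 1969 at Smad6). Each sequence holds the 250 bases before the annotated start, from RefSeq on GRCm38.p6, 5′ to 3′ on the gene's strand. Capitals mark matches on either strand to the letters GGCGCC, to the letters GGAGCC or to the letters CAGAC, known from SMAD-bound elements, and no matches overlapped.

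Id2 (chr12:25096093-25096342, minus strand): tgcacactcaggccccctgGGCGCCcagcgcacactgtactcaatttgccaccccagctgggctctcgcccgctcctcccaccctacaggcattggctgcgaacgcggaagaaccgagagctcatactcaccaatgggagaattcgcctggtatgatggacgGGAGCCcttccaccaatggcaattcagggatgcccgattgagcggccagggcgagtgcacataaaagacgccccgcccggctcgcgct

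Id3 (chr4:136143572-136143821, plus strand): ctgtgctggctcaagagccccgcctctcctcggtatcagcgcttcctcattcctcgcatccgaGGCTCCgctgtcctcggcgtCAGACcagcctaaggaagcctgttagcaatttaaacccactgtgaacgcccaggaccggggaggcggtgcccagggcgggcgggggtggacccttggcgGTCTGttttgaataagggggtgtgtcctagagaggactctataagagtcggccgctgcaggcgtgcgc

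Smad6 (chr9:64022060-64022309, minus strand): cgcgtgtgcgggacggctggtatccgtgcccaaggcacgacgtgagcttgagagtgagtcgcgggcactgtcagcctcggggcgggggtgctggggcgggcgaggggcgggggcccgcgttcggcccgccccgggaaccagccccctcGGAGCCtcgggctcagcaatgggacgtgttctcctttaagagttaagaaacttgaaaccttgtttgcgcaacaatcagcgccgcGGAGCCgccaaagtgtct

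Smad1 (chr8:79399429-79399678, minus strand): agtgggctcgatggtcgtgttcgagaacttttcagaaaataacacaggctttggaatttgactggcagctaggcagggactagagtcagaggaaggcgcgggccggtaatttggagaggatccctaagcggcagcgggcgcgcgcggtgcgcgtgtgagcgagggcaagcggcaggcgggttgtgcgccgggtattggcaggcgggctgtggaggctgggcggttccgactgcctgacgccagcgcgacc

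Bmpr1a (chr14:34502547-34502796, minus strand): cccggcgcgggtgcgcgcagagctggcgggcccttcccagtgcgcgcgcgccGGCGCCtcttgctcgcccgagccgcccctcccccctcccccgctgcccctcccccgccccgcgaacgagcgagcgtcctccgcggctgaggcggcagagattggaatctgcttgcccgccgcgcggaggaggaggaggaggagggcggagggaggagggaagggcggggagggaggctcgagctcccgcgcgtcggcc

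The gene-end peak covered all 250 bases at Id2, Id3 and Smad6, 243 at Smad1 and 200 at Bmpr1a. Id2 held 1 GGCGCC and 1 GGAGCC, Id3 1 GGAGCC and 2 CAGAC, Smad6 2 GGAGCC, and Bmpr1a 1 GGCGCC. Smad1 held none of these letters in this window. Promoter windows were found for 9 of the 10 genes. These genes have 11 windows together. GGCGCC stood in 4 of the 11 windows, against 9.59% of 32817 windows of all genes, GGAGCC in 6 against 26.0%, and CAGAC in 2 against 42.2%. The AP-1 letters TGAGTCA, or their reverse form TGACTCA, stood in 0 of the 11 against 4.46%, the CRE letters TGACGTCA in 0 against 1.55%, and the E-box CACGTG in 1 against 6.02%. The windows of the 9 genes were 60 to 85.6% G and C, against a median of 52.4% for all windows, and the part of base composition in these shares was not tested. A match is a description of letters and not a bound site.

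The libraries held 34.8 to 53.7 M reads in peaks, and their log2 values correlated across peaks at 0.988 to 0.991 within a group and 0.970 to 0.982 between groups. The gene-end peak of Med1 was at a level of 2114 ± 41.3 with NTC, 2023 ± 143 with #2 and 1971 ± 73.1 with #4 (normalized counts, SD, n = 3), with a log2 fold change of -0.08 ± 0.04 for the mean of both hairpins (limma, adjusted p = 0.132). A hairpin acts on the transcript, so this peak does not check the knockdown. Of 8 epithelial markers only Krt18 had a gene-end peak (209 in NTC, 121 in #2, 172 in #4), and Epcam, Cdh1 and Krt8 had none, whereas 5 of 6 mesenchymal markers had one, with summed levels of 11078 to 11435 in NTC, 10296 to 10705 in #2 and 11260 to 11676 in #4. Most epithelial defining markers thus had no gene-end peak in cells labelled as a carcinoma. Among markers of other cells, 2 of 5 for blood (Csf1r and Lyz2, summing to 173 to 230 in all groups), 1 of 4 for endothelium (Cdh5) and 0 of 3 for fat had a gene-end peak. The part of these markers in the results was not tested. The data are bulk, so fewer cells with an open site and a less open site in each cell cannot be told apart.

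Across the 10 genes, more of the 63 peaks were called higher than lower with each hairpin against NTC. Values are read counts per peak of 501 bases, divided by the authors' size factor of each library, and a call is a limma test on log2(value + 1) with an adjusted p under 0.05 over all 75930 peaks tested. All 63 passed the filter on low values. With #2, 16 of the 63 were higher (25.4%) and 7 lower (11.1%), against 23.6% higher and 19.5% lower of all peaks tested. With #4, 14 were higher (22.2%) and 7 lower (11.1%), against 17.3% and 12.1%. For the mean of both hairpins 14 were higher (22.2%) and 5 lower (7.94%), against 22.1% and 17.7%. Between the hairpins, 6 were higher in #4 than in #2 (9.52%) and 7 lower (11.1%), against 8.48% and 13%. The median log2 fold change of the 63 was -0.01 with #2, 0.03 with #4 and 0.03 for their mean, against -0.02, -0.01 and -0.01 for all peaks. For the mean, the share of higher calls was thus that of all peaks, and the share of lower calls was below it by a difference that was not tested. Both hairpins were set against the same NTC libraries. Where several adjusted p are given in a sentence, those after the first stand as bare numbers in parentheses, after the log2 fold change where both are given.

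The balance of higher and lower calls depended on the scaling. For the mean of both hairpins it was 10 higher and 13 lower with libraries scaled to equal totals, 14 and 9 with quantile scaling and 13 and 8 with cyclic loess. With #2 it was 10 and 14, 12 and 13, and 12 and 14 in the same order, and with #4 10 and 10, 13 and 8, and 13 and 9. With equal totals the median over all peaks tested became -0.10 with #2, -0.08 with #4 and -0.09 for their mean. Over all 75930 peaks tested, higher calls also fell and lower calls also rose with each scaling. For the mean, 16796 higher and 13452 lower became 12104 and 21010 with equal totals. They became 14947 and 15203 with quantile scaling, and 15519 and 14131 with cyclic loess. With #2, 17928 and 14781 became 13498 and 22132, 15924 and 16829, and 16602 and 15905 in that order. With #4, 13150 and 9152 became 9329 and 14938, 11436 and 10557, and 11485 and 9843. Counts of lower peaks also changed when single libraries were left out, which leaves fewer replicates in a group. For the mean, 5 became 2 once NTC replicate 3 was left out, and 3 once shMed1 #4 replicate 1 was. With #2, 7 became 3 without NTC replicate 3. With #4, 7 became 4 without NTC replicate 1 or 2, 2 without NTC replicate 3 and 1 without shMed1 #4 replicate 2. Without shMed1 #2 replicate 1, 5 of the 7 with #2 stayed lower and 3 were new. For the mean all 5 then stayed and 2 were new.

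**Figure D1:**
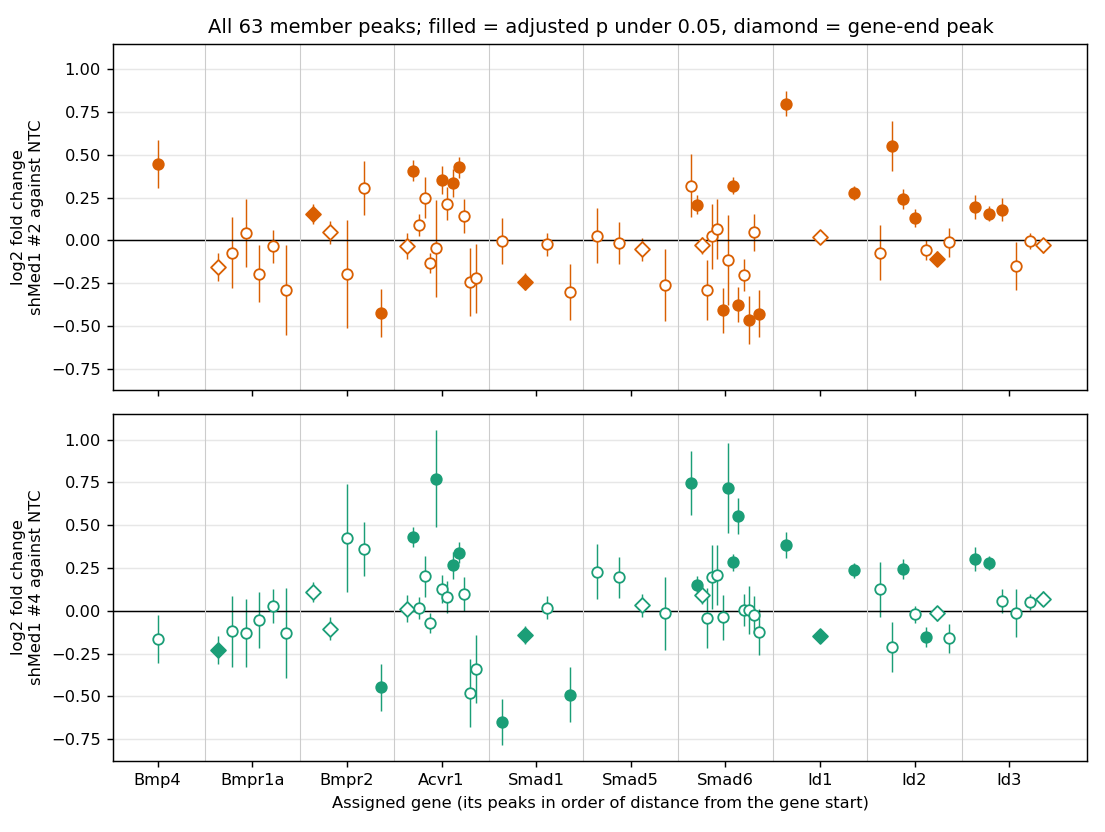
Log2 fold change (vertical axis, limma estimate with its standard error) of each of the 63 peaks against NTC, for shMed1 #2 above and shMed1 #4 below, grouped by assigned gene. Filled symbols passed an adjusted p of 0.05 and diamonds are gene-end peaks. The highest point with #2 is the Id1 peak at 0.80, and 16 filled points lie above zero with #2 and 14 with #4.

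In the control cells the Id promoters had some of the highest counts among gene-end peaks. All peaks have the same length, but the size factors act per library and do not correct for base composition or sequence. The ranks between genes are thus ranks of counts. The gene-end peak, one with its centre within 1 kb of an annotated gene end, stood at 4210 ± 116 normalized counts in NTC at Id1, higher than 98.6% of all gene-end peaks, at 3417 ± 77.6 at Id2 (95.8%) and at 3140 ± 40 at Id3 (94.0%). Smad1 followed at 2053 ± 22 (79.1%) and Smad6 at 1969 ± 64.1 (77.1%), and the libraries of these neighbours overlapped. Bmpr2 had a pair of such peaks at 1382 ± 35.2 (59.7%) and 954 ± 24.7 (45.2%). Smad5 at 917 ± 68.5 (43.9%), Bmpr1a at 778 ± 79.1 (39.5%) and Acvr1 at 679 ± 60.9 (36%) were the lowest (SD, n = 3). Bmp4 had no gene-end peak. The libraries of Smad5 and of the weaker Bmpr2 peak overlapped, as did those of Bmpr1a and Acvr1. Of the 10 gene-end peaks 1 was higher and 2 lower for the mean of both hairpins, against 14.3% and 32.8% of all gene-end peaks.

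**Figure D2:**
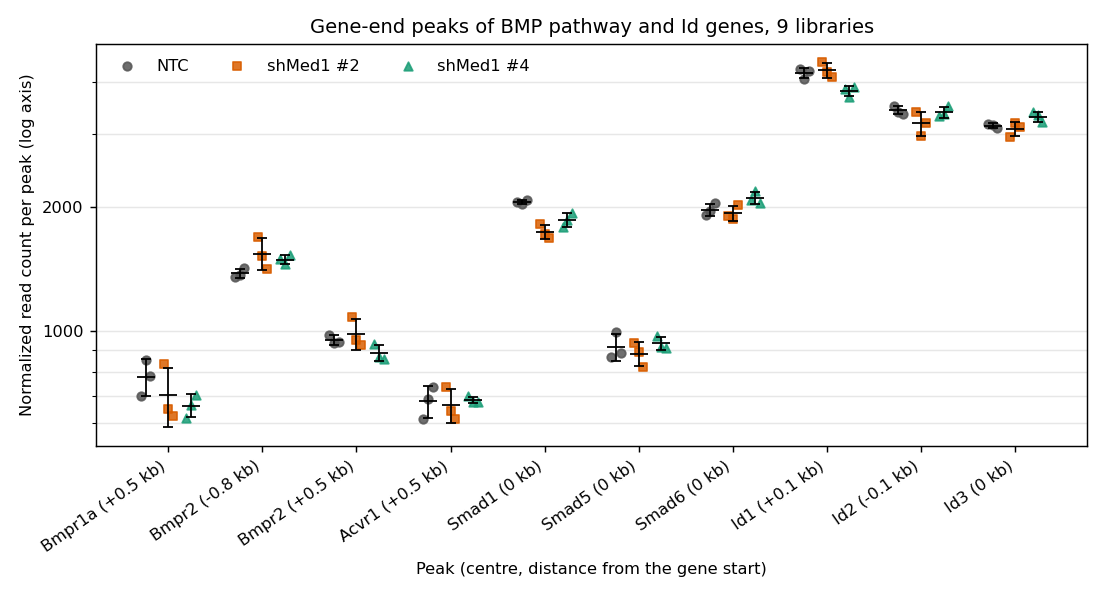
Normalized read count (log axis) of the 10 gene-end peaks in each of the 9 libraries, with the mean and SD of 3 libraries per group, labelled by gene and by distance of the peak centre from the gene start. The Id peaks lie at 2944 or above in every library, and at Smad1 all 6 hairpin libraries lie below the 3 NTC libraries.

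The ligand gene Bmp4, which encodes a secreted BMP, had a single weak peak 17.8 kb upstream of its start (chromosome 14, 46408261 to 46408762). It held 137, 141 and 134 normalized counts in the NTC libraries, 181, 170 and 213 in #2, and 115, 108 and 149 in #4. The #2 libraries all lay above the NTC libraries, while #4 overlapped NTC. The log2 fold change was 0.45 ± 0.14 with #2 (limma, adjusted p = 0.00873) and -0.16 ± 0.14 with #4 (limma, adjusted p = 0.403), and #4 was lower than #2 by a tested difference of -0.61 ± 0.14 (limma, adjusted p = 0.00092). Without shMed1 #2 replicate 3 the call with #2 was lost (0.35, limma, adjusted p = 0.077).

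Among the receptor genes the type I receptor gene Bmpr1a was lower at its gene end for the mean of both hairpins, as were 32.8% of all gene-end peaks. The Bmpr1a gene-end peak (chromosome 14, 34502597 to 34503098) held 697, 855 and 782 in NTC, 835, 648 and 624 in #2, and 620, 664 and 704 in #4. The groups overlapped, with shMed1 #2 replicate 1 within the NTC range. The log2 fold change was -0.16 ± 0.08 with #2 (limma, adjusted p = 0.128), -0.23 ± 0.08 with #4 (0.0331) and -0.19 ± 0.07 for their mean (0.03). For the mean, the call was lost without NTC replicate 2 (-0.12, limma, adjusted p = 0.29), NTC replicate 3 (0.096), shMed1 #2 replicate 2 (0.08), shMed1 #2 replicate 3 (0.086) or shMed1 #4 replicate 1 (0.067). With #2 the peak was called lower with equal totals (-0.24, limma, adjusted p = 0.0154), quantile scaling (-0.26, 0.00761), cyclic loess (-0.23, 0.0204) and quality weights (-0.23, 0.00886), and without NTC replicate 1 (-0.23, 0.0374) or shMed1 #2 replicate 1 (-0.29, 0.00299). With #4 its call was lost with a replicate block (0.051) and without NTC replicate 2 (0.24) or 3 (0.091) or shMed1 #4 replicate 1 (0.15) or 2 (0.075). The other 5 Bmpr1a peaks lay inside the gene at 51.9 to 313 in NTC, and limma called none in any contrast, nor did any have an unadjusted p under 0.05 or a call with voom.

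Bmpr2, the type II receptor gene, had peaks that moved in different directions. Its stronger gene-end peak, 0.8 kb upstream of the start (chromosome 1, 59763234 to 59763735), held 1357, 1366 and 1422 in NTC, 1689, 1518 and 1419 in #2, and 1492, 1451 and 1529 in #4. The #4 libraries lay above NTC and #2 overlapped it in a single library. The log2 fold change was 0.15 ± 0.06 with #2 (limma, adjusted p = 0.0269), 0.11 ± 0.06 with #4 (0.152) and 0.13 ± 0.05 for their mean (0.031). The call with #2 was lost with equal totals (limma, adjusted p = 0.33), quantile scaling (0.19) and cyclic loess (0.39). It was also lost without NTC replicate 1 (limma, adjusted p = 0.073) or 2 (0.087) or shMed1 #2 replicate 1 (0.23). For the mean the peak was not called with equal totals (0.05, limma, adjusted p = 0.39), quantile scaling (0.08, 0.21) or cyclic loess (0.05, 0.46), nor without NTC replicate 1 (0.1), NTC replicate 2 (0.12), shMed1 #2 replicate 1 (0.084) or shMed1 #4 replicate 3 (0.059). The gene-end peak on the other side of the start, 0.5 kb inside the gene, was not called, but was lower with #4 at equal totals (-0.17, limma, adjusted p = 0.0364) and lower in #4 than in #2 without shMed1 #2 replicate 3 (-0.20, 0.0484). A distal peak 5.8 kb past the far end of Bmpr2 (chromosome 1, 59883664 to 59884165) held 169, 166 and 193 in NTC, 137, 120 and 136 in #2, and 131, 110 and 147 in #4. All 6 hairpin libraries were below the NTC libraries. Its log2 fold change was -0.42 ± 0.14 with #2 (limma, adjusted p = 0.0124), -0.45 ± 0.14 with #4 (0.0121) and -0.43 ± 0.12 for their mean (0.00335), and the call for the mean held under each of the 19 alternatives. The call with #2 was lost without NTC replicate 3 (0.08) or shMed1 #2 replicate 2 (0.064), and that with #4 without NTC replicate 3 (0.084) or shMed1 #4 replicate 2 (0.1). A neighbour of it 4.8 kb past the same end (chromosome 1, 59882676 to 59883177) went the other way, with 93.3 ± 1.53 under NTC, 116 ± 9.35 under #2 and 121 ± 17.0 under #4 (SD, n = 3). Its call for the mean was marginal (0.33 ± 0.14, limma, adjusted p = 0.0453), and was lost with equal totals (0.12), with a replicate block (0.051), with voom (0.05) and without any one of 6 libraries (adjusted p up to 0.12): NTC replicate 1, 2 or 3, shMed1 #2 replicate 1 or 2, or shMed1 #4 replicate 3.

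Acvr1, the gene of the type I receptor also known as ALK2, had 4 of 13 peaks higher for the mean of both hairpins and 0 lower, against 22.1% and 17.7% of all peaks (limma, with 1 lower at an unadjusted p under 0.05 and 0 with voom). Its gene-end peak (chromosome 2, 58566076 to 58566577), which also lies inside Upp2, a uridine phosphorylase gene, held 614, 689 and 735 in NTC, 734, 643 and 613 in #2, and 699, 677 and 675 in #4, and the groups overlapped (log2 fold change for the mean -0.01 ± 0.07, limma, adjusted p = 0.917). The next peak, 1.4 kb inside Acvr1 and 0.9 kb from the end of Upp2 (chromosome 2, 58565172 to 58565673), held 1014, 937 and 1061 in NTC, 1306, 1338 and 1347 in #2, and 1365, 1336 and 1350 in #4. Every hairpin library was higher than every NTC library. Its log2 fold change was 0.41 ± 0.06 with #2 (limma, adjusted p = 1.5e-07) and 0.43 ± 0.06 with #4 (1.15e-07). The other 3 lay deep in the gene. At 82.3 kb from the start (chromosome 2, 58484303 to 58484804) the peak went from 1113, 1025 and 1076 in NTC to 1334, 1433 and 1567 in #2 and 1284, 1361 and 1422 in #4. These groups did not overlap either, and the log2 fold change for the mean was 0.38 ± 0.05 (limma, adjusted p = 5.71e-08). Its neighbour at 80.9 kb stood at 0.30 ± 0.07 (limma, adjusted p = 0.000436), and without NTC replicate 2 at 0.19 (0.054). The peak at 53.5 kb (chromosome 2, 58513113 to 58513614) held 516, 501 and 513 in NTC, 644, 660 and 652 in #2, and 482, 641 and 555 in #4. The #2 libraries lay above NTC and the #4 libraries overlapped it. It was called with #2 (0.35 ± 0.08, limma, adjusted p = 0.000443) and not with #4 (0.12 ± 0.08, 0.263), and for the mean it stood at 0.24 ± 0.07 (0.00598), or 0.16 with equal totals (0.0603). The strongest Acvr1 peak, at 20.3 kb (chromosome 2, 58546272 to 58546773), stood at 1372 ± 34 in NTC, 1254 ± 78.9 in #2 and 1306 ± 76.5 in #4 (SD, n = 3) and was not called (-0.10 ± 0.05, limma, adjusted p = 0.109), but it was called lower with equal totals, quantile scaling and cyclic loess (-0.18, -0.16 and -0.18), with library quality weights (-0.12) and without shMed1 #2 replicate 1 (-0.12). A weak peak at 35.2 kb (chromosome 2, 58531387 to 58531888) was higher with #4, from 34.6 ± 5.81 to 62.1 ± 22.5 (SD, n = 3), or by 0.77 ± 0.28 on the log2 scale (limma, adjusted p = 0.0337). That call was lost with equal totals (0.051) and without NTC replicate 2 or 3 or shMed1 #4 replicate 1 or 2 (0.094 to 0.25). The other 6 Acvr1 peaks, at 81.7 to 932 in NTC, were not called in any contrast, though 3 of them were under 1 or more alternatives.

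Of the genes for the SMADs that carry the signal, Smad1 had a lower gene-end peak and Smad5 had no called peak. Lower were 1 of 4 Smad1 peaks with #2 and 3 of 4 with #4 and for the mean, against 19.5%, 12.1% and 17.7% of all peaks. Among all gene-end peaks 32.8% were lower for the mean. The Smad1 gene-end peak (chromosome 8, 79399170 to 79399671), whose promoter letters are given above, held 2051, 2033 and 2076 in NTC, 1814, 1716 and 1682 in #2, and 1787, 1863 and 1933 in #4. All 6 hairpin libraries lay below the 3 NTC libraries. The log2 fold change was -0.24 ± 0.05 with #2 (limma, adjusted p = 0.00012), -0.14 ± 0.05 with #4 (0.0285) and -0.19 ± 0.04 for their mean (0.000413). The call with #2 and that for the mean held under every alternative, but that with #4 was lost without NTC replicate 1 (0.054), 2 (0.067) or 3 (0.095) or without shMed1 #4 replicate 1 (0.13) or 2 (0.072).

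A distal Smad1 peak 48.0 kb upstream (chromosome 8, 79447218 to 79447719) held 205, 172 and 225 in NTC, 190, 222 and 186 in #2, and 108, 126 and 150 in #4. The #4 libraries lay below all others, and #2 overlapped NTC. As a log2 fold change, the shift was -0.01 ± 0.13 with #2 (limma, adjusted p = 0.977) and -0.65 ± 0.13 with #4 (0.000173), and the hairpins differed by -0.64 ± 0.13 (0.000258). For the mean it was called lower at -0.33 ± 0.12 (limma, adjusted p = 0.0211), although #2 alone was near the NTC level. This mean call was lost with cyclic loess (limma, adjusted p = 0.053) and without NTC replicate 1 (0.073) or 3 (0.18) or shMed1 #4 replicate 1 (0.057). A weak peak 1.4 kb inside the far end of Smad1 (chromosome 8, 79339522 to 79340023) went from 122 ± 14.3 to 98.0 ± 2.90 in #2 and 86.1 ± 7.94 in #4 (SD, n = 3), with -0.40 ± 0.14 on the log2 scale for the mean (limma, adjusted p = 0.0215) that was not called with quantile scaling (0.053), cyclic loess (0.066), or without NTC replicate 1 (0.074) or 3 (0.15). The fourth Smad1 peak, 49.0 kb inside the gene at 864 ± 43.4 in NTC (SD, n = 3), was not called.

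At Smad5 the gene-end peak (chromosome 13, 56702798 to 56703299) held 868, 996 and 889 in NTC, 940, 893 and 821 in #2, and 977, 918 and 915 in #4. The 3 groups overlapped, and the log2 fold change for the mean was -0.01 ± 0.06 (limma, adjusted p = 0.908). The other 3 Smad5 peaks, at 72.0 to 213 in NTC, had log2 fold changes between -0.14 and 0.13 for the mean and limma called 0 of the 4 in any contrast, with 0 at an unadjusted p under 0.05 and 0 with voom.

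Smad6, the gene of the inhibitory SMAD, had the most peaks, with 3 of 14 higher for the mean of both hairpins, 2 higher and 4 lower with #2, and 5 higher with #4. Of its peaks 21.4% were thus higher for the mean, against 22.1% of all peaks, and 14.3% higher and 28.6% lower with #2, against 23.6% and 19.5%. With #4 35.7% were higher, against 17.3%, and the difference between these shares was not tested. Its gene-end peak (chromosome 9, 64021812 to 64022313) held 1911, 1957 and 2038 in NTC, 1902, 1866 and 2024 in #2, and 2078, 2178 and 2040 in #4. The #4 libraries were above NTC by a narrow margin and #2 overlapped it, and neither was called, though with #2 it was called lower with equal totals (-0.11), quantile scaling (-0.12) and cyclic loess (-0.13). The strongest distal peak, 11.1 kb past the far end of the gene (chromosome 9, 63941727 to 63942228), held 1886, 1919 and 1877 in NTC, 2319, 2358 and 2421 in #2, and 2224, 2371 and 2320 in #4. All hairpin libraries lay above NTC. Here the log2 fold change was 0.32 ± 0.05 with #2 (limma, adjusted p = 2.58e-07) and 0.28 ± 0.05 with #4 (6.51e-06), and both calls held under each of the 20 alternatives.

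On the upstream side of Smad6, the peak at 28.2 kb (chromosome 9, 64050022 to 64050523) went from 1574 ± 69.8 to 1820 ± 98.6 in #2 and 1748 ± 90.8 in #4 (SD, n = 3). For the mean it changed by 0.18 ± 0.05 on the log2 scale (limma, adjusted p = 0.00195), but 0.10 with equal totals (0.064) and 0.09 with cyclic loess (0.12). The weak peak at 45.9 kb (chromosome 9, 64067747 to 64068248) held 64.5, 56.2 and 59.6 in NTC, 72.0, 86.4 and 68.1 in #2, and 104, 96.3 and 103 in #4. The 3 groups were ordered NTC, #2, #4 with no overlap. Tested with limma, the log2 fold change was 0.32 ± 0.19 with #2 (limma, adjusted p = 0.161) and 0.75 ± 0.19 with #4 (0.00167), and the difference between the hairpins was not called (0.43 ± 0.19, 0.0958).

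Around the far end of Smad6, 3 weak peaks were lower with #2, beside one at 25.2 kb that the hairpins moved in opposite directions. Those 34.7 to 43.3 kb past that end stood at 159 to 360 in NTC, and of these 4 the peaks at 36.9 and 43.3 kb were called lower with #2 (-0.47 ± 0.14, limma, adjusted p = 0.00602, and -0.43 ± 0.14, 0.0091), as was a peak 3.2 kb inside that end (-0.41 ± 0.13, 0.0103). With #4 these 3 stood at 0.00 ± 0.14, -0.12 ± 0.14 and -0.04 ± 0.13 (limma, adjusted p = 0.991, 0.521 and 0.862). Higher in #4 than in #2 were the peaks at 36.9 kb (0.47 ± 0.14, limma, adjusted p = 0.0113) and inside the end (0.37 ± 0.13, 0.0355). The difference at 43.3 kb was not called (0.30 ± 0.14, limma, adjusted p = 0.106). Both called differences were lost without shMed1 #2 replicate 1 (limma, adjusted p = 0.098 and 0.16) or shMed1 #4 replicate 3 (0.054 and 0.099). The #2 call at 36.9 kb was lost without shMed1 #2 replicate 1 (limma, adjusted p = 0.062), that at 43.3 kb without NTC replicate 3 (0.08), and that inside the gene without NTC replicate 2 (0.05), NTC replicate 3 (0.057) or shMed1 #2 replicate 1 (0.064). A peak 2.6 kb past the end was higher with #4 (0.71 ± 0.26, limma, adjusted p = 0.0344), from 38.5 ± 6.10 in NTC to 64.5 ± 14.8 (SD, n = 3). That call was lost with equal totals (0.054) and without NTC replicate 1 or 2, or shMed1 #4 replicate 1 or 3 (adjusted p 0.1 to 0.14). The same peak was higher in #4 than in #2 (0.83 ± 0.26, limma, adjusted p = 0.0179). This difference was lost without shMed1 #2 replicate 1 (limma, adjusted p = 0.061) or shMed1 #4 replicate 1 (0.093) or 3 (0.082). The 3 deeper peaks inside Smad6, at 80.6 to 102 in NTC, and those 34.7 and 41.7 kb past its end were not called. The one at 34.7 kb (chromosome 9, 63918151 to 63918652) was called lower with #2 under equal totals (-0.29, limma, adjusted p = 0.00906), quantile scaling (-0.27, 0.0162), cyclic loess (-0.25, 0.0246) and quality weights (-0.21, 0.045), and without shMed1 #2 replicate 1 (-0.24, 0.0491). It was called higher in #4 than in #2 with quantile scaling (0.25, limma, adjusted p = 0.0404) and cyclic loess (0.26, 0.0352).

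Each of the Id genes, direct targets of the pathway, had at least 1 distal peak that was higher for the mean of both hairpins, while limma called 0 of their 3 promoter peaks in that contrast (0 at an unadjusted p under 0.05 and 0 with voom). Higher for the mean were 2 of 3 peaks at Id1, 1 of 7 at Id2 and 2 of 6 at Id3, against 22.1% of all peaks. Among all gene-end peaks 14.3% were higher and 32.8% lower. The difference of the Id peaks from these shares was not tested. All 3 promoter peaks were called lower for the mean with quantile scaling and cyclic loess, and those of Id1 and Id2 also with equal totals. At Id1 the promoter peak (chromosome 2, 152736128 to 152736629) held 4297, 4078 and 4256 in NTC, 4464, 4227 and 4119 in #2, and 3857, 3677 and 3889 in #4. The #4 libraries lay below all others and #2 overlapped NTC. Its log2 fold change was 0.02 ± 0.04 with #2 (limma, adjusted p = 0.715) and -0.14 ± 0.04 with #4 (0.00459). With #2 the direction turned to -0.18 with quantile scaling (limma, adjusted p = 0.000165) and -0.10 with cyclic loess (0.0268), and with #4 the call was lost without shMed1 #4 replicate 2 (-0.12, 0.053). For the mean it was -0.06 ± 0.04 (limma, adjusted p = 0.148), and it was called lower at -0.14 with equal totals (0.000645), -0.27 with quantile scaling (6.35e-09) and -0.20 with cyclic loess (1.91e-06).

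The Id1 peak 9.3 kb from the gene on its lower-coordinate side (chromosome 2, 152726670 to 152727171) had the largest log2 fold change among the 63 peaks with #2 and for the mean. It held 467, 490 and 458 in NTC, 789, 834 and 843 in #2, and 624, 628 and 596 in #4. The 3 groups were separate, with #2 highest and #4 between. In log2 terms the change was 0.80 ± 0.07 with #2 (limma, adjusted p = 1.18e-12), 0.38 ± 0.07 with #4 (6.15e-05) and 0.59 ± 0.06 for their mean (1.26e-10), and all 3 calls held under every alternative run. The peak 4.2 kb past the other end (chromosome 2, 152741342 to 152741843) was stronger and moved less. It held 2740, 2651 and 2786 in NTC, 3220, 3252 and 3438 in #2, and 3358, 3115 and 3168 in #4. Hairpin and NTC libraries did not overlap, and the log2 fold change for the mean was 0.26 ± 0.04 (limma, adjusted p = 2.46e-07), with the call under #4 lost on quantile scaling (0.10, 0.064) and cyclic loess (0.10, 0.053).

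At Id2 the promoter peak (chromosome 12, 25095965 to 25096466) held 3504, 3392 and 3355 in NTC, 3389, 2962 and 3184 in #2, and 3304, 3344 and 3501 in #4. The groups overlapped. On the log2 scale the change was -0.11 ± 0.04 with #2 (limma, adjusted p = 0.0472), a call lost with a replicate block (0.058), with only NTC and #2 fitted (0.059) and without any one of NTC replicates 1 to 3, shMed1 #2 replicate 2 or 3 or shMed1 #4 replicate 2 (0.059 to 0.38). For the mean it was -0.06 ± 0.04 (limma, adjusted p = 0.209), and it was called lower with equal totals (-0.14, 0.0021), quantile scaling (-0.22, 1.4e-06) and cyclic loess (-0.19, 3.6e-05). The distal peak 14.4 kb upstream (chromosome 12, 25110260 to 25110761) held 1225, 1186 and 1255 in NTC, 1458, 1450 and 1428 in #2, and 1375, 1525 and 1446 in #4. All hairpin libraries lay above NTC, and the log2 fold change was 0.24 ± 0.06 with each hairpin (limma, adjusted p = 0.000466 with #2 and 0.000723 with #4).

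Closer to Id2, the peak 2.8 kb upstream stood at 2096 ± 72.6 in NTC, 2300 ± 172 in #2 and 2066 ± 62.4 in #4 (SD, n = 3). The call as higher with #2 (0.13 ± 0.05, limma, adjusted p = 0.032) was lost with all 3 other scalings and with quality weights (0.069), and without NTC replicate 1 (0.14), NTC replicate 3 (0.053) or shMed1 #2 replicate 1 (0.27). The peak 1.7 kb upstream was lower with #4 (-0.16 ± 0.06, limma, adjusted p = 0.0379), a call lost without NTC replicate 1, 2 or 3 or shMed1 #4 replicate 1 or 2 (0.063 to 0.14). For the mean it was not called (-0.10 ± 0.05, limma, adjusted p = 0.0932). It was called lower for the mean with equal totals (limma, adjusted p = 0.00257), quantile scaling (0.00615), cyclic loess (0.00173) and quality weights (0.0393), and without shMed1 #2 replicate 1 (0.0166). With #2 it was called lower with equal totals (limma, adjusted p = 0.0403) and cyclic loess (0.0313). The peaks 1.3 kb past the other end of Id2 and 47.6 kb upstream, at 508 ± 14.7 and 110 ± 16.7 in NTC (SD, n = 3), were not called, but the former was lower with #4 at equal totals (-0.23, limma, adjusted p = 0.0291).

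At Id3, 2 upstream peaks were higher for the mean of both hairpins, and its promoter peak was not called in that contrast. The promoter peak (chromosome 4, 136143547 to 136144048) held 3170, 3155 and 3095 in NTC, 2944, 3184 and 3114 in #2, and 3378, 3322 and 3197 in #4. The #4 libraries were above NTC and #2 overlapped it. The fitted log2 change for the mean was 0.02 ± 0.04 (limma, adjusted p = 0.674), and it turned to -0.13 with quantile scaling (0.00134) and -0.10 with cyclic loess (0.0138). With #2 it was called lower with equal totals (-0.11, limma, adjusted p = 0.0205), quantile scaling (-0.18, 0.00025) and cyclic loess (-0.14, 0.00327).

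The upstream Id3 peak at 26.6 kb (chromosome 4, 136116925 to 136117426) held 2587, 2576 and 2596 in NTC, 2810, 2921 and 2914 in #2, and 3182, 3152 and 3078 in #4. The groups were ordered NTC, #2, #4 with no overlap. As a log2 fold change, the shift was 0.16 ± 0.04 with #2 (limma, adjusted p = 0.00284) and 0.28 ± 0.04 with #4 (1.29e-06), and the #2 call was lost with equal totals (0.07, 0.17), quantile scaling (0.04, 0.47) and cyclic loess (0.04, 0.39). The peak at 33.1 kb (chromosome 4, 136110494 to 136110995) held 698, 737 and 673 in NTC, 814, 770 and 833 in #2, and 901, 820 and 880 in #4. All 6 hairpin libraries lay above NTC, and the log2 fold change for the mean was 0.25 ± 0.06 (limma, adjusted p = 0.000717), a call that held under every alternative. The call with #4 (0.30 ± 0.07, limma, adjusted p = 0.00064) also held. That with #2 (0.20 ± 0.07, limma, adjusted p = 0.0183) was lost with equal totals (0.18), quantile scaling (0.23) and cyclic loess (0.14). It was also lost without NTC replicate 3 (limma, adjusted p = 0.092) or shMed1 #2 replicate 3 (0.073). The peak at 20.3 kb was higher with #2 (0.18 ± 0.07, limma, adjusted p = 0.0287), which was lost with all 3 other scalings (0.2 to 0.33) and without NTC replicate 1 or 2 or shMed1 #2 replicate 1 or 3 (0.056 to 0.092). Those at 8.7 and 3.3 kb were not called.

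**Figure D3:**
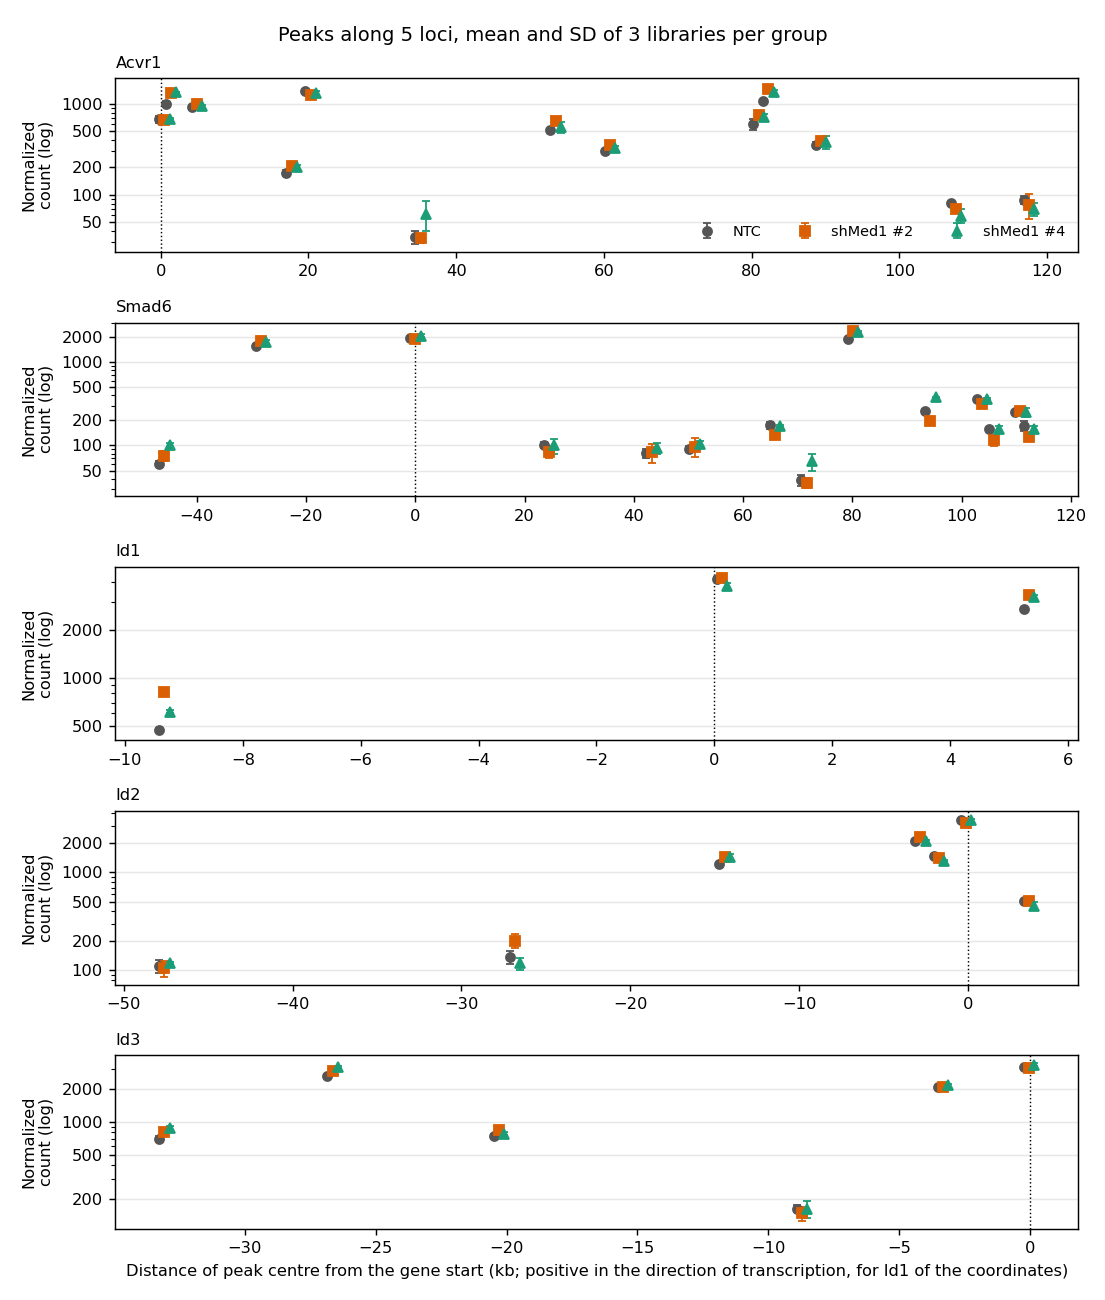
Mean and SD of the normalized read count (log axis, n = 3) of each peak against the distance of its centre from the gene start in kb, for Acvr1, Smad6, Id1, Id2 and Id3, with the groups drawn side by side at each peak. The dotted line is the gene start. At Id1 the peak at -9.3 kb rises from 472 in NTC to 822 in #2 and 616 in #4 beside a promoter peak at 4210 in NTC.

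The hairpins differed from each other at 13 of the 63 peaks, and the largest of these differences was at Smad6. The shares, 9.52% higher in #4 and 11.1% lower, were near the 8.48% and 13% of all peaks. The peak 25.2 kb past the far end of Smad6 (chromosome 9, 63927586 to 63928087) held 244, 258 and 273 in NTC, 206, 180 and 213 in #2, and 372, 387 and 378 in #4. The 3 groups were separate, with #2 below and #4 above NTC. Here the log2 fold change was -0.38 ± 0.10 with #2 (limma, adjusted p = 0.00292) and 0.55 ± 0.10 with #4 (4.24e-05), and the difference of 0.93 ± 0.10 (1.28e-09) held under every alternative.

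An Id2 peak 26.8 kb upstream (chromosome 12, 25122657 to 25123158) held 135, 159 and 116 in NTC, 164, 218 and 222 in #2, and 136, 114 and 103 in #4. The #2 libraries were above both other groups, which overlapped. Tested with limma, the log2 fold change was 0.55 ± 0.15 with #2 (limma, adjusted p = 0.00179) and -0.21 ± 0.15 with #4 (0.291), with a difference of -0.76 ± 0.15 (7.42e-05). The Id1 peak at 9.3 kb and the Id1 promoter differed by -0.42 ± 0.07 (limma, adjusted p = 2.44e-05) and -0.16 ± 0.04 (0.00167). These 4 differences, and those at Bmp4 and at the distal Smad1 peak, make up the 6 with the smallest adjusted p. Under each of the 20 alternatives, 1 of the 6 peaks higher in #4 than in #2 kept its call, that of Smad6 at 25.2 kb, as did 5 of the 7 lower ones. The count of higher peaks was 2 without shMed1 #2 replicate 1 and 3 without shMed1 #4 replicate 1, 2 or 3, and the peaks lost differed between these 3.

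**Figure D4:**
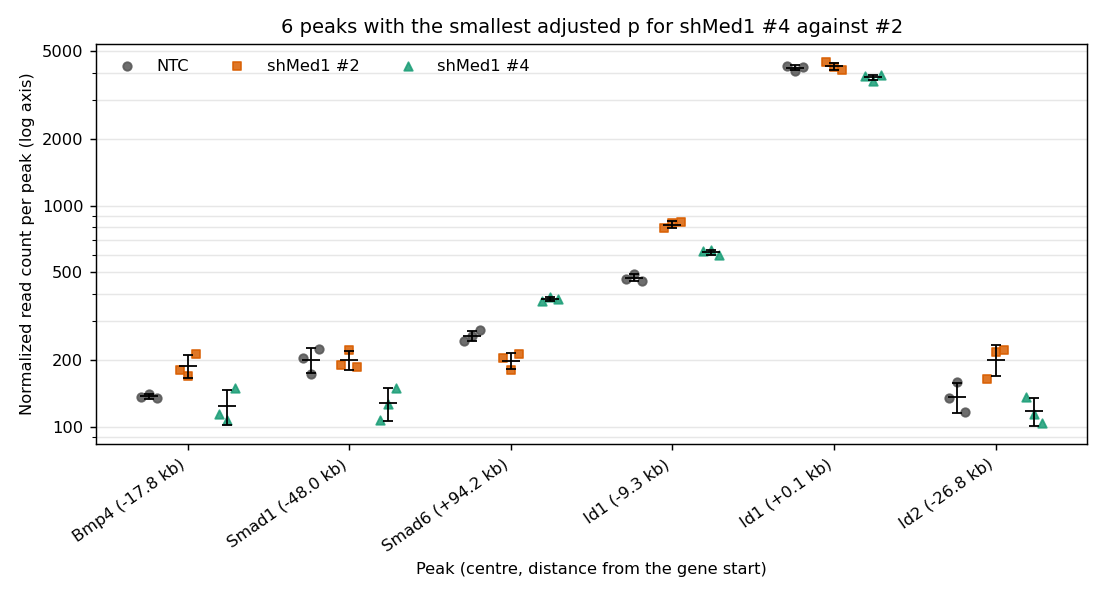
Normalized read count (log axis) in each of the 9 libraries, with the mean and SD of 3 libraries per group, for the 6 member peaks with the smallest adjusted p between shMed1 #4 and shMed1 #2. At Smad6 the #2 libraries lie between 180 and 213 and the #4 libraries between 372 and 387.

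The wider BMP pathway was covered by 46 other genes, of which 44 had a peak, with 206 peaks together. For the mean of both hairpins 44 of the 206 were higher and 29 lower, with #2 50 and 38, and with #4 35 and 23, and the median log2 fold change for the mean was -0.01. For the mean by role, the ligand genes had 7 of 41 peaks higher (17.1%) and 4 lower (9.76%), and the receptor and co-receptor genes 6 of 35 (17.1%) and 5 (14.3%). The Smad and Smad regulator genes had 11 of 43 (25.6%) and 10 (23.3%), and the target genes 9 of 35 (25.7%) and 4 (11.4%). Genes of secreted antagonists and modulators, among them Bmp1, Bmper and Twsg1, had 11 of 52 (21.2%) and 6 (11.5%). Over the 206 peaks 21.4% were higher and 14.1% lower for the mean, against 22.1% and 17.7% of all peaks. With #2 24.3% were higher and 18.4% lower, against 23.6% and 19.5% of all peaks. With #4 the shares were 17% and 11.2%, against 17.3% and 12.1%. Differences between these shares were not tested.

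Peaks of 4 genes each way with the smallest adjusted p for the mean are named. A peak inside Eng, which encodes the co-receptor endoglin, rose from 2655 ± 62.3 normalized counts under NTC to 3453 ± 215 under #2 and 3445 ± 23.4 under #4 (SD, n = 3), and its log2 fold change for the mean was 0.38 ± 0.04 (limma, adjusted p = 1.73e-11). Smurf1, the gene of an E3 ubiquitin ligase for SMAD1 and SMAD5, had a peak inside the gene at 0.36 ± 0.04 (limma, adjusted p = 1.11e-10) and a gene-end peak at -0.69 ± 0.08 (1.07e-09). The latter went from 575 ± 27.5 to 322 ± 48.5 in #2 and 397 ± 25.4 in #4 (SD, n = 3). Distal peaks near Atoh8 and Dlx5, transcription factor genes that respond to BMP, stood at 0.69 ± 0.07 and 0.80 ± 0.09 (limma, adjusted p = 1.1e-10 and 3.4e-10). The gene-end peak of Smad7, the other inhibitory SMAD gene, stood at -0.26 ± 0.04 (limma, adjusted p = 5.84e-07). A peak inside Hey1, a gene responsive to Notch and BMP, stood at -0.34 ± 0.08 (limma, adjusted p = 0.00035). A peak near the ligand gene Bmp2 stood at -0.72 ± 0.17 (limma, adjusted p = 0.000446), from 137 ± 9.27 to 79.8 ± 26.1 in #2 and 91.2 ± 24 in #4 (SD, n = 3).

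The gene-end peaks whose values followed those of the Id1 promoter most closely over the 9 libraries, out of 11718 compared, were those of Itfg1 (Pearson r = 0.96), Nacc2 (0.96), Pkp3 (0.95), Ldah (0.93) and Pgk1 (0.93), given as a description. The Itfg1 peak stood at 3108 in NTC, 3229 in #2 and 2788 in #4, so it too was lowest in #4. The 9 points share their libraries, groups and scaling.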

How the data were processed

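ATAC-seq reads of 9 libraries were processed by the authors. Per the submitters' processing notes, Trim Galore, BWA, MACS2, Subread and featureCounts were used with mm10 (GRCm38), while for versions, duplicate removal, the merging of peaks and any transposase offset the sources used here give nothing. For each peak of 501 bases the authors deposited a normalized signal, named as DESeq2-normalized counts: reads divided by a size factor of the library.

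All values of a library (100%) were whole multiples of 1 step (within 0.01), which gave size factors of 0.799 to 1.22 and 34.8 to 53.7 M reads in peaks. A count model had been planned as the main test if 1-read steps were found. The lowest nonzero values stood for 2 or 3 reads, so by this rule it was not used. The worked-out reads entered only voom, run as an alternative. Values were taken as log2(value + 1) and fitted with limma 3.58.1 with trend (R 4.3.3) for the 75930 peaks that averaged 10 or more (6 left out), with a mean for each of the 3 groups. Tests were two-sided, and p-values were Benjamini-Hochberg adjusted across all peaks in each contrast, at 0.05. Errors are SDs with n = 3 for levels and limma standard errors for log2 fold changes. The fit was tested on simulated data.

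Genes came from RefSeq on GRCm38.p6, without exons, so exon and intron are not told apart. Of all peaks, 810 lay inside more than 1 gene. Gene starts came from the RefSeq promoter table, and that of Id1, which has no entry there, was taken as its lower coordinate. Coordinates are printed as deposited, and whether starts count from 0 or 1 is not stated.

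The members and gene lists were chosen with earlier results of these data known. Named by rule were each gene's gene-end peaks, strongest peak and most significant peak each way for the mean of both hairpins, the 6 peaks most different between hairpins, and 4 genes each way of the pathway list. Other peaks described singly were chosen after their values were seen. Alternatives were other scalings, pseudocounts, filters, library weights, voom, a replicate block, only the groups compared, other assignment rules and each library left out.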

Additional observations from a re-analysis of the deposited data

Results flagged for a closer look

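The effects of the hairpins, both against the same NTC libraries, differed at 13 member peaks by the limma contrast of shMed1 #4 with #2 (adjusted p under 0.05), and each value here is the log2 fold change of #4 minus that of #2. At Smad6 the peaks 25.2, 36.9 and 2.6 kb past its far end and the one 3.2 kb inside that end had differences of 0.9271, 0.4693, 0.8267 and 0.3703, all higher in #4. At Id1 the peak at 9.3 kb and the promoter had -0.4151 and -0.1648. At Id2 the peaks 26.8 and 2.8 kb upstream had -0.763 and -0.1528. The distal peaks of Smad1 and Bmp4 had -0.6442 and -0.6089. At Acvr1 the peaks 35.2 and 53.5 kb from the start had 0.8171 and -0.2299. The Id3 peak 26.6 kb upstream had 0.1227. The 6 higher and 7 lower peaks are 9.52% and 11.1% of the 63, against 8.48% and 13% of all peaks tested. The Acvr1 difference at 53.5 kb was lost (limma, adjusted p 0.0511 to 0.318) with the 3 other scalings, quality weights or only the compared groups fitted, and without shMed1 #2 replicate 2 or 3 or shMed1 #4 replicate 1 or 3. The Id2 difference at 2.8 kb was lost without shMed1 #2 replicate 1 (limma, adjusted p = 0.208) or shMed1 #4 replicate 2 (0.118) or 3 (0.0667). Of the 6 higher in #4, 5 lost their call under 1 or more alternatives, and the Smad6 difference at 25.2 kb did not. The cause of these differences was not tested.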

How the results depend on the processing

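Pseudocounts of 0.5 and 10, no filter and a mean of at least 50 changed no direction or call of the named peaks, and kept each count of member peaks within 1.5 times. With equal totals, 10 peaks were higher with #2 (16 in the report) and 14 lower (7), and 13 were lower for the mean of both hairpins (5). Over all peaks tested, lower calls with equal totals also rose, from 14781 to 22132 with #2 and from 13452 to 21010 for the mean. Lower counts were 13 with #2 and 9 for the mean with quantile scaling, 14 and 8 with cyclic loess, and 8 for the mean with quality weights. Assignment within 25 kb left 4 lower with #2, 9 higher with #4 (14) and 3 higher in #4 than in #2 (6), since it holds fewer peaks. The Id1 promoter with #2 turned to -0.18 (quantile) and -0.10 (cyclic loess), and the Id3 promoter for the mean to -0.13 and -0.10. Otherwise the cause was not tested. With each library left out in turn, the counts ran from 13 to 17 higher and 3 to 8 lower with #2, 10 to 14 and 1 to 7 with #4, 11 to 14 and 2 to 7 for the mean, and 2 to 6 and 5 to 7 for #4 against #2. Same-numbered libraries did not deviate together over the peaks tested (correlations -0.084 to 0.033). This gave no sign of pairing by number, but it cannot exclude that they were grown or handled together. A replicate block gave 16 higher and 6 lower with #2, 14 and 6 with #4, and 13 and 5 for the mean. Errors were largest at weak peaks (0.31 at 35.8 counts, 0.04 at 4210), which limits what could be called there.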
